A study of Mus musculus with 2 samples.

Results

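Mixed barcodes are droplet barcodes that hold lymphocyte and myeloid transcripts at once, and 1144 of the 22699 barcodes kept from 2 single-cell libraries met that description. A barcode was chosen by measured values: at least 2 unique molecular identifiers (UMIs, counts of single captured transcripts) summed over Cd3d, Cd3e, Cd3g and Ncr1, and more than 20 per 10000 UMIs summed over 8 myeloid genes. These were the C1q genes C1qa, C1qb and C1qc, the MHC class II genes H2-Aa, H2-Ab1 and H2-Eb1, with Cd74 and Apoe. Before that, barcodes under 500 UMIs, under 250 genes or over 10% mitochondrial UMIs had been dropped. The libraries were made on the 10x Genomics platform from CD45-positive leukocytes that had been sorted from subcutaneous B16F10 tumours, a transplanted mouse melanoma, in wild-type (WT) mice. The control library came from mice that had received untreated bone-marrow-derived macrophages (BMDMs), and the IL4 library from mice that had received BMDMs treated with IL-4, so that transfer of BMDMs was common to both groups. That grouping follows the sample characteristics, while the treatment protocol field names IL-4-treated cells for both libraries. The number, age and sex of the mice are not given in the sources used here. With 1 library per group there was no replicate, so no test between groups was made, and every interval below covers counting error at the 95% level only.

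The Cd3 genes encode signalling chains of the T cell receptor complex, and Ncr1 encodes an activating receptor of natural killer (NK) cells. C1qa, C1qb and C1qc form complement component C1q, which tissue macrophages make in quantity. Apoe is a macrophage lipid carrier, and the H2 genes with Cd74, the invariant chain, load and present antigen on MHC class II. In droplet sequencing a barcode can carry transcripts of both kinds when 2 cells share a droplet by accident, when a T cell and an antigen-presenting cell stay attached through sorting, or when free RNA enters the droplet. Lymphocytes and macrophages can also take up material from other cells. These sources cannot be told apart from the counts alone.

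The control library held 8994 deposited barcodes with a median of 9156.5 UMIs, and 8937 were kept. The IL4 library held 13873 with a median of 8213 UMIs, and 13762 were kept. Of the barcode sequences, 23 occurred in both libraries, and 3 of those were mixed in at least 1 of them. The kept barcodes divided into 376 mixed, 302 that passed only the lymphocyte gate (lymphocyte-only), 7242 that passed only the myeloid gate (myeloid-only) and 1017 that passed neither in the control library. The same groups held 768, 537, 11055 and 1402 barcodes in the IL4 library.

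The marker genes of the lymphocyte and the macrophage lineage were both present in mixed barcodes. The 12 T cell markers, which include the receptor constant genes and the kinase Lck, summed to 2158 counts per 1000000 UMIs (CPM) in control mixed barcodes, 3970 CPM in lymphocyte-only and 28.0 CPM in myeloid-only barcodes. The 12 macrophage markers summed to 2482, 368 and 4404 CPM in the same groups. In the IL4 library the T cell list stood at 1921, 3474 and 45.1 CPM and the macrophage list at 2829, 390 and 4489 CPM. Mixed barcodes thus lay between the unmixed groups on both lists in both libraries, at a level which the gates partly fixed. The T cell list includes the gate genes Cd3d, Cd3e and Cd3g, and the macrophage list C1qa, C1qb, C1qc and Apoe. In both libraries all 12 T cell markers were higher in mixed than in myeloid-only barcodes. All 12 macrophage markers were higher than in lymphocyte-only ones. Outside the gates, Trac was at 221 and 173 CPM and Csf1r at 101 and 91.2 CPM in control and IL4 mixed barcodes. Of the markers of cells outside these lineages, the 9 B cell genes summed to 79.9 CPM in control and 58.8 CPM in IL4 mixed barcodes, against 104 and 92.2 CPM in myeloid-only ones. The 6 melanoma genes summed to 82.1 and 74.5 CPM, against 150 and 152 CPM in myeloid-only barcodes. Almost all of that came from Mitf, which myeloid cells also transcribe, at 76.0 and 68.1 CPM, while the pigment enzyme Tyr had 0 UMIs in control and 1 UMI in IL4 mixed barcodes.

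The myeloid signal of lymphocyte-gated barcodes ran on through the limit with no gap. In lymphocyte-only barcodes the median of the 8 myeloid genes was 7.78 per 10000 UMIs in the control library and 8.64 in the IL4 library, whereas in mixed barcodes it was 96.4 and 106 per 10000. Just under the limit, from 15 to 20 per 10000, lay 30 control and 52 IL4 barcodes. Just over it, from 20 to 25, lay 21 and 46, and from 25 to 30 lay 18 and 28. The number per interval thus went on falling just past the limit, with a long upper range. Farther up, in intervals 15 wide, the number changed less, with 34 control and 61 IL4 barcodes from 50 to 65 and 32 and 53 from 65 to 80. Counted in 2-fold ranges, 5 to 10 held 151 control and 260 IL4 barcodes, 20 to 40 held 70 and 124, and 100 to 200 held 101 and 264. On that scale there were fewer barcodes just over the limit than in the lower or the upper of these ranges. At the limit itself, no gap set mixed apart from lymphocyte-only barcodes. Whether the upper range is a group of its own was not tested. The lymphocyte gate was met by few of the myeloid-gated barcodes. Of the myeloid-gated control barcodes, 6788 had no UMI of the 4 lymphocyte genes, 454 had 1, 46 had 2 and 33 had 3. In the IL4 library these numbers were 10199, 856, 130 and 72. Most mixed barcodes were far from that edge, with a median of 8 lymphocyte UMIs in each library, and 161 of 376 control and 342 of 768 IL4 mixed barcodes had 10 or more.

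**Figure D1:**
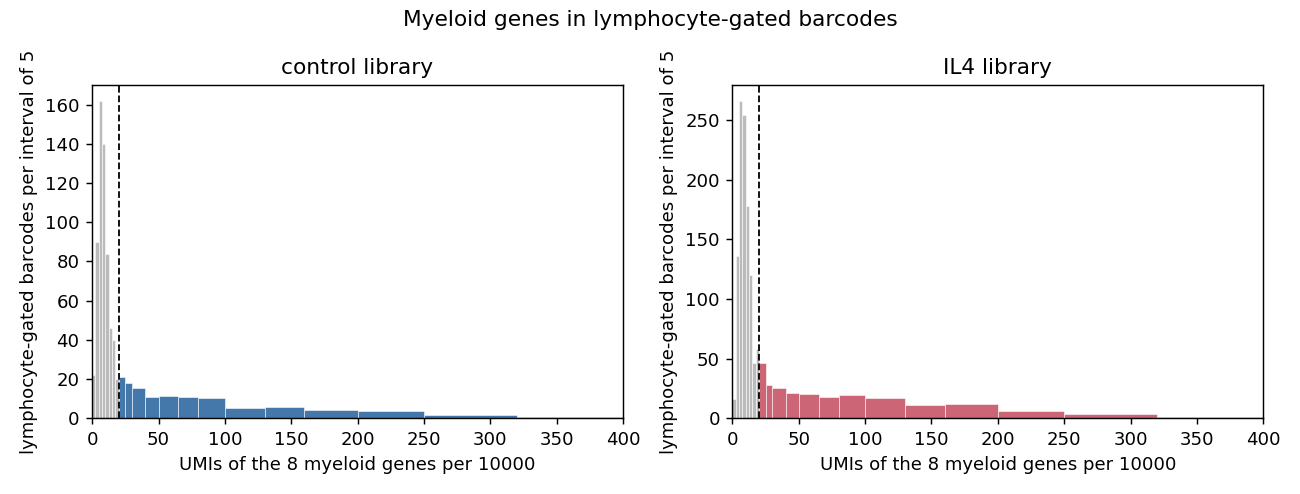
Number of lymphocyte-gated barcodes per interval of 5 (y axis) by UMIs of the 8 myeloid genes per 10000 (x axis, bars as wide as their bins, up to 400), with the control library left and the IL4 library right. Coloured bars right of the dashed limit of 20 per 10000 are mixed barcodes and grey bars lymphocyte-only ones, and the numbers fall through the limit, from 30 to 21 in the control and from 52 to 46 in the IL4 library, without a gap.

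Mixed barcodes made up 4.21% of kept control barcodes (exact Clopper-Pearson interval 3.8% to 4.64%) and 5.58% of kept IL4 barcodes (5.20% to 5.98%). The difference was 1.37 percentage points (Newcombe interval 0.801 to 1.93), and it was 2.51 points with a lymphocyte gate of 1 UMI and 0.790 points with 4 UMIs. Lymphocyte-gated barcodes were also a larger share of the IL4 library, 9.48% against 7.59%, a difference of 1.90 points (1.15 to 2.63). Of the lymphocyte-gated barcodes, 55.5% were mixed in the control library (51.6% to 59.2%) and 58.9% in the IL4 library (56.1% to 61.5%), and the interval of that difference, -1.18 to 7.99 points, includes 0. With a myeloid limit of 100 per 10000 the shares were 26.1% (22.8% to 29.6%) and 31.4% (28.9% to 34.0%). Thinned to 3000 UMIs they were 43.4% (38.5% to 48.5%) and 49.7% (46.1% to 53.4%). Mixed barcodes were thus more frequent in the IL4 library among all barcodes. Among lymphocyte-gated ones no difference was detectable at the stated gates. The gap was wider under these other settings, for which no interval of the difference was computed. The IL4 library also had more kept barcodes, 13762 against 8937, so barcode number and treatment cannot be separated with 1 library per group. The part of barcode number in the difference of mixed shares was not tested. Because 85.2% of control and 85.9% of IL4 barcodes passed the myeloid gate, independence of the gates would have given 578 and 1121 mixed barcodes. The observed numbers were 0.651 (0.586 to 0.720) and 0.685 (0.637 to 0.735) times those products.

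Cell types that should lack T and NK transcripts give the level against which the lymphocyte gate can be read. Among neutrophils, gated by S100a8 and S100a9, 1.72% of 232 control barcodes (0.472% to 4.36%) and 0.893% of 112 IL4 barcodes (0.0226% to 4.87%) passed the lymphocyte gate, at low median depths of 2895 and 2487 UMIs. Among B cells, gated by Cd79a, Cd79b and Ms4a1, the shares were 5.26% of 114 (1.96% to 11.1%) and 7.14% of 84 (2.67% to 14.9%), at medians of 6575.5 and 11326 UMIs. C1q-rich macrophages passed in 3.94% and 4.63% of barcodes at medians of 8868 and 7820 UMIs. The share of macrophages with at least 2 lymphocyte UMIs was therefore within the interval of the B cell share in each library. That interval is wide, as it rests on 6 passing B cell barcodes per library. The part of the macrophage share that comes from free RNA was not tested. In the other direction, 41.8% and 43.8% of neutrophils passed the myeloid gate. With all barcodes thinned to 3000 UMIs, a depth that 1043 control and 1676 IL4 barcodes did not reach (5 and 11 of them mixed), 2.18% of control and 3.04% of IL4 barcodes were mixed. At that depth the lymphocyte gate was passed by 2.65% (2.04% to 3.37%) and 3.07% (2.54% to 3.67%) of C1q-rich macrophages. Monocytes, gated by Vcan, passed in 0.836% (0.362% to 1.64%) and 0.921% (0.491% to 1.57%). Mature dendritic cells, gated by Ccr7 and Fscn1, passed in 3.83% and 4.23%, and B cells in 1 of 70 and 0 of 23 barcodes. These classes were read over all kept barcodes, so lymphocytes with the marker UMIs enter them. Before thinning, 94 control and 247 IL4 barcodes of the mature dendritic cell class passed, of which 71 and 193 were mixed. For the monocyte class these numbers were 68 and 98, of which 46 and 76 were mixed. The shares of these 2 classes are therefore not a background level.

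Other lineages met the C1q genes in 1 barcode at rates that differed from each other. Compared with the product of their shares, lymphocyte-gated barcodes met the C1q gate 0.624 times (0.522 to 0.740) in the control and 0.651 times (0.576 to 0.733) in the IL4 library. Barcodes of plasmacytoid dendritic cells, marked by Siglech, met it 0.286 times (0.0929 to 0.668) and 0.287 times (0.153 to 0.491). B cell barcodes met it 0.815 times (0.546 to 1.17) and 1.19 times (0.817 to 1.69). For neutrophils the values were 0.218 (0.125 to 0.354) and 0.0536 (0.00649 to 0.194). Neutrophil barcodes were the shallowest of these, with medians of 2913 and 2503 UMIs under this gate, and the part of depth in the order was not tested. The lymphocyte interval lay above that of neutrophils in both libraries and above that of plasmacytoid dendritic cells in the IL4 library, while it overlapped that of B cells in the control library and lay below it in the IL4 library. Within the lymphocytes, Cd3-gated barcodes met C1q 0.689 (0.572 to 0.824) and 0.691 (0.603 to 0.788) times the product, and Ncr1-gated barcodes 0.257 (0.128 to 0.461) and 0.447 (0.326 to 0.597) times.

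Mixed barcodes held about as many UMIs as a lymphocyte-only and a myeloid-only barcode together. In the control library mixed barcodes held 21663 ± 13154 UMIs (mean ± SD over 376 barcodes), lymphocyte-only barcodes 11670 ± 9449 and myeloid-only barcodes 10507 ± 7159. In the IL4 library the means were 20064 ± 10980, 10906 ± 8542 and 9215 ± 6154. The mean of mixed barcodes was 0.977 times the sum of the other means in the control library and 0.997 times in the IL4 library. Medians were 18490 UMIs and 4471.5 genes in control and 17640.5 UMIs and 4348 genes in IL4 mixed barcodes, against 7826.5 and 7739 UMIs in lymphocyte-only barcodes. The lymphocyte gate is a number of UMIs, which deeper barcodes reach more readily, and its part in the depth of mixed barcodes was not tested.

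To set the mixed barcodes beside indiscriminate pairing, every possible sum of 1 lymphocyte-only and 1 myeloid-only barcode of the same library was formed, 2187084 in the control library and 5936535 in the IL4 library, and those passing both gates were kept (86.7% and 86.8%). Their mean was 22346 and 20228 UMIs, so that mixed barcodes stood at 0.969 and 0.992 times the pairs. Ratios to these pairs carry the exact Poisson interval of the observed number only. The error of the unmixed barcodes, of which the lymphocyte-only ones are few, is not in them.

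**Figure D2:**
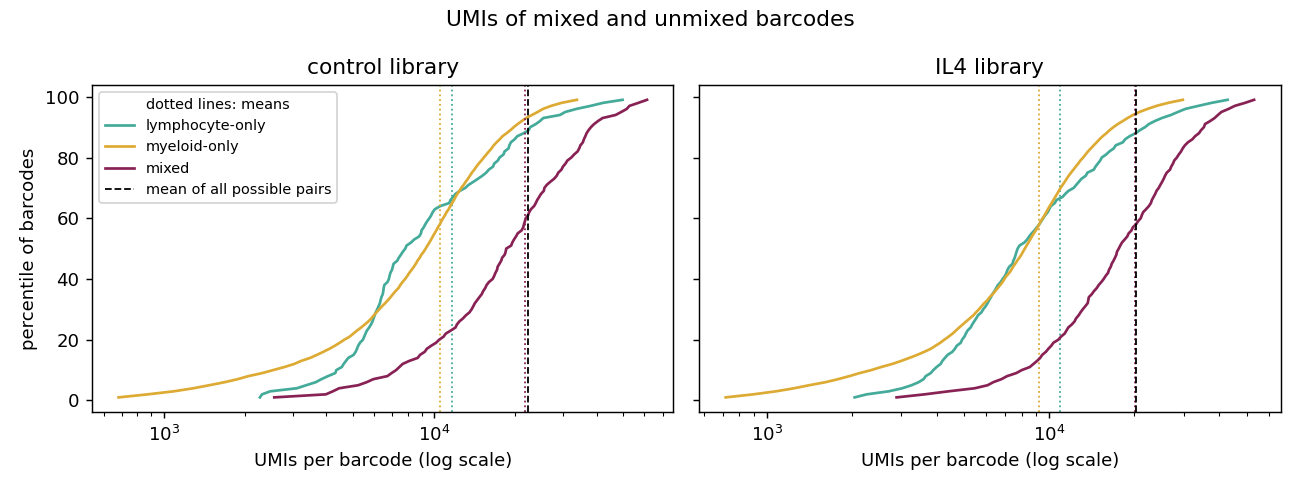
Percentile of barcodes (y axis) against UMIs per barcode (x axis, log scale) for lymphocyte-only, myeloid-only and mixed barcodes, with dotted lines at the group means and a dashed line at the mean of all possible pairs. The mixed curve lies to the right of both others over most of its length, and its mean (21663 control, 20064 IL4) lies near that of the pairs (22346, 20228).

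Xist, the long non-coding RNA of the inactive X chromosome, is transcribed in female cells, and Ddx3y, Eif2s3y, Kdm5d and Uty lie on the Y chromosome. Both kinds of transcript were present in each library, which makes a barcode with both a measure of mixing that the gates did not use. Of control mixed barcodes, 175 of 376 held both (46.5%, exact interval 41.4% to 51.7%), against 9.27% of lymphocyte-only (6.25% to 13.1%) and 10.5% of myeloid-only barcodes (9.81% to 11.2%). Of IL4 mixed barcodes, 208 of 768 held both (27.1%, 24.0% to 30.4%), against 6.89% (4.90% to 9.37%) and 7.51% (7.02% to 8.02%). The intervals of mixed and unmixed barcodes did not overlap in either library.

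Indiscriminate pairs would have held both in 49.1% of the control and 31.0% of the IL4 cases, so the observed shares were 0.947 (0.812 to 1.10) and 0.873 (0.758 to 1.0) times those. At equal depth, with mixed barcodes thinned to 6000 UMIs and each member of a pair to 3000, the shares were 24.4% (19.9% to 29.2%) against 26.6% in the control and 12.6% (10.3% to 15.2%) against 16.0% in the IL4 library. In IL4 mixed barcodes the joint share at equal depth was below that of pairs, beyond the counting error of the mixed barcodes. Unmixed barcodes at 6000 UMIs held both in 4.61% to 6.91% of cases. The joint share was also high among barcodes with few gate transcripts: mixed barcodes with exactly 2 lymphocyte UMIs held both in 32.6% (19.5% to 48.0%) of 46 control cases and in 26 of 130 IL4 cases (13.5% to 27.9%). With 10 or more lymphocyte UMIs the shares were 58.4% (50.4% to 66.1%) and 31.6% (26.7% to 36.8%).

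**Figure D3:**
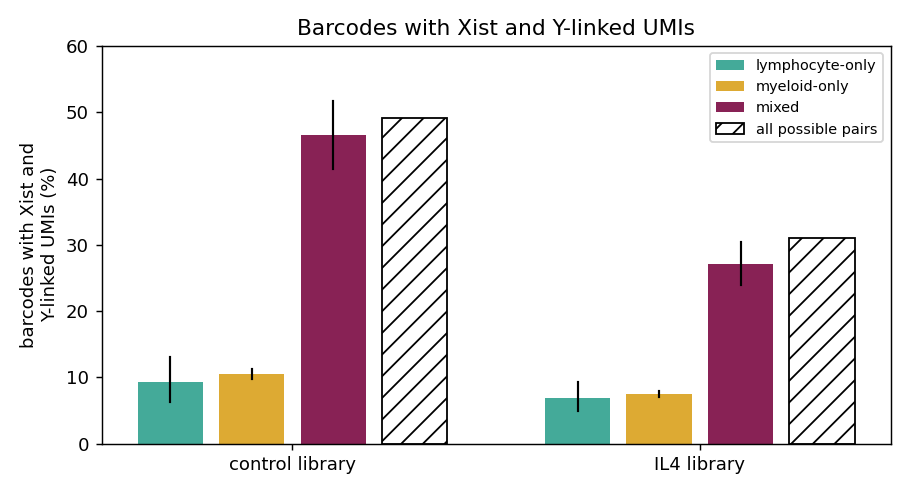
Percent of barcodes with at least 1 UMI of Xist and 1 of the 4 Y-linked genes (y axis) in lymphocyte-only, myeloid-only and mixed barcodes of each library, with exact 95% intervals as black lines, and in all possible pairs (hatched). Mixed barcodes (46.5% control, 27.1% IL4) stand near the pairs (49.1%, 31.0%) and well above the unmixed barcodes.

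On the lymphocyte side, the CD8 T cell class was a larger share and the NK cell class a smaller share of mixed than of lymphocyte-only barcodes, in both libraries. The classes were read from the Cd3 genes, Cd4, and Cd8a with Cd8b1, the co-receptor genes of helper and cytotoxic T cells. Barcodes with a Cd3 gene and a CD8 gene but no Cd4 made up 46.3% of control mixed barcodes (41.2% to 51.5%) and 49.1% of IL4 ones (45.5% to 52.7%), against 33.1% and 36.5% of lymphocyte-only barcodes. Relative to all possible pairs the CD8 class stood at 1.43 (1.23 to 1.66) and 1.35 (1.22 to 1.49), and relative to lymphocyte-only barcodes, with the counting error of both groups, at 1.40 (1.09 to 1.81) and 1.34 (1.13 to 1.61). With a myeloid limit of 100 per 10000 the ratios to the pairs were 1.16 (0.913 to 1.46) and 1.19 (1.03 to 1.37), so that the control interval included 1. Cd8a itself had a UMI in 45.7% and 45.2% of mixed barcodes, in 32.1% and 33.9% of lymphocyte-only ones, and in 1.67% and 2.12% of myeloid-only ones. After thinning to 3000 UMIs, where a mixed barcode keeps fewer lymphocyte UMIs than a lymphocyte-only one, it had a UMI in 19.9% and 19.02% of mixed and 24.4% and 21.9% of lymphocyte-only barcodes.

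Barcodes with Ncr1 and no Cd3 gene, the NK class, made up 7.71% (5.23% to 10.9%) and 11.7% (9.53% to 14.2%) of mixed barcodes against 22.5% and 28.1% of lymphocyte-only barcodes, or 0.358 (0.240 to 0.514) and 0.444 (0.357 to 0.546) times the pairs. With the counting error of both groups included, the ratio of shares was 0.343 (0.214 to 0.536) and 0.417 (0.317 to 0.545). Other NK genes, which the gates did not use, were low as well: Klrb1c, encoding NK1.1, stood at 0.421 (0.320 to 0.545) and 0.496 (0.421 to 0.581) times the pairs. Trdc, the constant gene of the gamma delta receptor, which NK cells also transcribe, stood at 0.361 (0.217 to 0.564) and 0.529 (0.403 to 0.682). Counted the other way, 63.5% of all CD8-class lymphocytes were mixed in the control library and 65.8% in the IL4 library, whereas 29.9% and 37.3% of NK-class ones were.

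CD4 T cells, with Cd4 and no CD8 gene, made up 16.2% (12.6% to 20.3%) and 9.77% (7.76% to 12.1%) of mixed barcodes, which was 1.21 (0.926 to 1.55) and 1.45 (1.14 to 1.82) times the pairs. The IL4 interval leaves 1, but with the counting error of lymphocyte-only barcodes included the ratio was 1.5 (0.990 to 2.31). Foxp3, the transcription factor of regulatory T cells, had a UMI in 9.57% of control and 6.12% of IL4 mixed barcodes, 1.57 (1.10 to 2.17) and 1.95 (1.44 to 2.60) times the pairs. T cells with neither co-receptor gene stood at 0.918 (0.750 to 1.11) and 0.946 (0.821 to 1.08). Barcodes with Cd4 and a CD8 gene together were 8 and 20 in number, 0.828 (0.357 to 1.63) and 1.22 (0.746 to 1.89) times the pairs. The CD4 class was a smaller share of mixed barcodes in the IL4 library by 6.46 points (2.37 to 10.9), and the lymphocyte-only barcodes differed in the same direction, by 7.06 points (2.88 to 11.7).

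**Figure D4:**
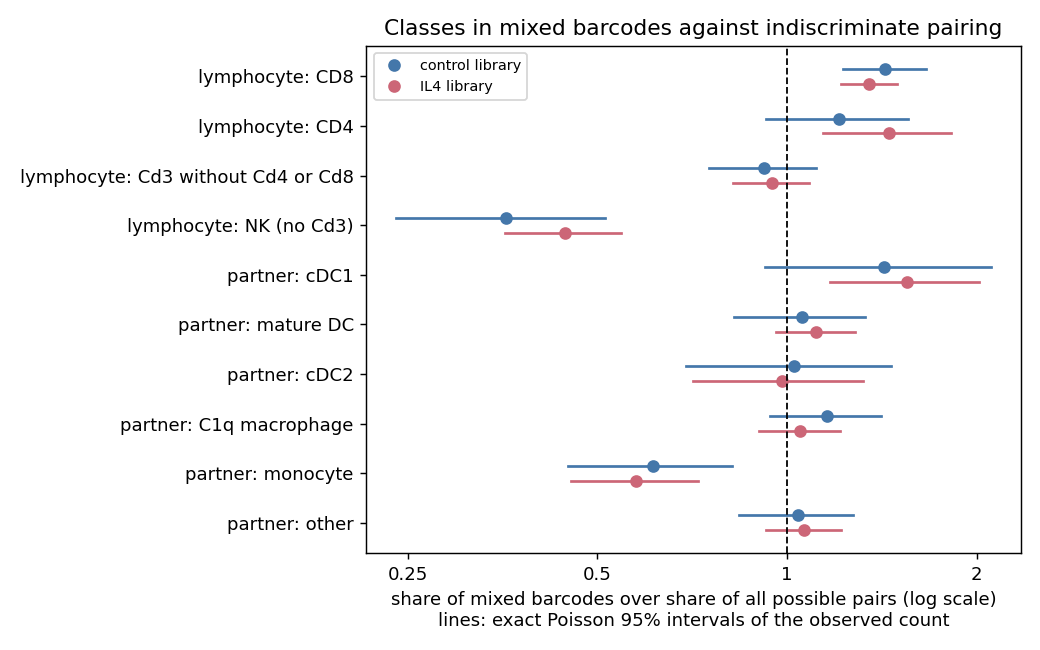
Share of each lymphocyte and partner class among mixed barcodes divided by its share among all possible pairs (x axis, log scale), for the control and IL4 libraries, with exact Poisson 95% intervals of the observed number. CD8 T cells lie right of 1 (1.43 and 1.35), while NK cells (0.358 and 0.444) and monocyte partners (0.613 and 0.577) lie left of it.

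State genes of T cells followed the class makeup in part. Pdcd1, which encodes the inhibitory receptor PD-1, had a UMI in 49.2% and 48.2% of mixed barcodes, 1.51 (1.30 to 1.74) and 1.33 (1.2 to 1.48) times the pairs. Tcf7, the transcription factor of naive and memory T cells that NK cells also transcribe, stood at 0.608 (0.502 to 0.730) and 0.778 (0.687 to 0.878). Mki67, a gene of cycling cells, stood at 1.26 (1.07 to 1.48) and 1.13 (1.02 to 1.26). Within the CD8 class alone the difference was smaller for Pdcd1, which was found in 75.3% of 174 control and 75.1% of 377 IL4 mixed barcodes, against 67.1% and 73.8% of pairs of that class, ratios of 1.12 (0.939 to 1.33) and 1.02 (0.902 to 1.14). Tcf7 remained lower in the control library, in 15.5% of CD8-class mixed barcodes against 28.5% of pairs (0.545, 0.359 to 0.793), and its IL4 ratio was 0.826 (0.653 to 1.03). The cytotoxic gene Gzmb and the cytokine gene Ifng stood at 1.15 (0.959 to 1.37) and 0.887 (0.735 to 1.06) within the control CD8 class and at 1.02 (0.905 to 1.14) and 0.996 (0.885 to 1.12) within the IL4 one. The comparison within the class, and Tcf7 among these genes, were chosen after other values had been seen.

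On the myeloid side, each barcode was put in the first class it matched among B cells, plasmacytoid dendritic cells, type 1 conventional dendritic cells (cDC1, by Xcr1 and Clec9a), mature dendritic cells (Ccr7 and Fscn1), type 2 conventional dendritic cells (cDC2, by Cd209a), neutrophils, C1q macrophages and monocytes (Vcan, a matrix proteoglycan gene of monocytes). The cDC1 class, which specialises in presenting antigen to CD8 T cells, was 6.65% (4.35% to 9.66%) of control and 7.16% (5.44% to 9.22%) of IL4 mixed barcodes against 4.03% and 3.96% of myeloid-only ones. Relative to the pairs, which are deeper than single barcodes and so match more classes, cDC1 partners stood at 1.43 (0.923 to 2.10) and 1.55 (1.17 to 2.02). With 5000 UMIs required of every barcode these ratios were 1.28 (0.826 to 1.88) and 1.31 (0.987 to 1.71), and with a myeloid limit of 100 per 10000 they were 1.31 (0.829 to 1.96) and 1.12 (0.826 to 1.48). With a lymphocyte gate of 4 UMIs they were 1.49 (0.925 to 2.29) and 1.49 (1.06 to 2.02). The interval of the IL4 cDC1 ratio therefore left 1 at the stated gates and at the stricter lymphocyte gate, and included 1 under the other two settings.

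Mature dendritic cells, which carry antigen to lymph nodes under the chemokine receptor Ccr7, were 18.9% (15.1% to 23.2%) and 25.1% (22.1% to 28.4%) of mixed barcodes, 2.03 times their share in myeloid-only barcodes in each library (1.56 to 2.59 and 1.74 to 2.36). Lymphocytes have Ccr7 themselves: 21.9% of control and 19.6% of IL4 lymphocyte-only barcodes had a UMI of it. Against the pairs, which hold those UMIs too, the class stood at 1.06 (0.824 to 1.33) and 1.11 (0.960 to 1.28). With Fscn1, an actin-bundling gene of mature dendritic cells, and the chemokine gene Ccl22 in place of Ccr7, the ratios were 0.989 (0.657 to 1.43) and 1.33 (1.08 to 1.63). A higher share of mature dendritic cell partners than pairing gives was thus seen in the IL4 library under 1 definition of the class.

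C1q macrophages were 26.3% (21.9% to 31.1%) and 23.4% (20.5% to 26.6%) of mixed barcodes, at 1.16 (0.940 to 1.41) and 1.05 (0.902 to 1.21) times the pairs, and cDC2 partners stood at 1.02 (0.691 to 1.46) and 0.980 (0.709 to 1.32). Monocyte partners were fewer, 12.2% (9.10% to 16.0%) and 9.90% (7.88% to 12.2%) of mixed barcodes, or 0.613 (0.449 to 0.817) and 0.577 (0.454 to 0.722) times the pairs. Under a myeloid limit of 100 per 10000 the monocyte ratios were 0.384 (0.154 to 0.791) and 0.597 (0.360 to 0.933). As single genes, C1qa stood at 1.07 (0.940 to 1.22) and 1.04 (0.951 to 1.14), Cd209a at 1.01 (0.797 to 1.26) and 1.0 (0.845 to 1.17), Xcr1 at 1.40 (0.897 to 2.08) and 1.54 (1.15 to 2.04), Ccr7 at 0.903 (0.752 to 1.08) and 1.10 (0.981 to 1.22), and Vcan at 1.0 (0.866 to 1.15) and 0.876 (0.784 to 0.976). Vcan as a gene was therefore near the pairs in the control and below them in the IL4 library, and the monocyte class, which holds only barcodes low in C1q, was below them in both. Mature dendritic cell partners were 6.25 points (1.07 to 11.1) more frequent in IL4 than in control mixed barcodes, and 3.06 points (2.15 to 3.96) more frequent among myeloid-only barcodes.

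Given the markers that mixed barcodes held, lymphocyte and partner markers combined close to independently. Of the 20 combinations of Cd8a, Cd8b1, Cd4 or Ncr1 with C1qa, Cd209a, Xcr1, Ccr7 or Vcan, the median ratio of barcodes with both to the product of their margins was 1.08 in the control library and 1.04 in the IL4 library. In the control library 1 interval left 1, that of Cd8a with Ccr7 (73 barcodes against 57.2, ratio 1.28, 1.0 to 1.61). In the IL4 library 1 did, that of Cd4 with Xcr1 (15 barcodes against 6.25, ratio 2.40, 1.34 to 3.96). With a UMI minimum of 2 for a marker, 0 of 20 intervals left 1 in each library. After thinning to 3000 UMIs the medians were 0.834 and 0.808, 0 intervals left 1 in the IL4 library, and 1 did in the control library, below 1 (Cd8a with Vcan, 5 barcodes against 14.4, ratio 0.348, 0.113 to 0.812). Over whole classes, 0 of 19 control and 0 of 25 IL4 combinations with at least 5 expected barcodes had an interval that left 1.

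Cd8a and C1qa met in 118 control mixed barcodes (31.4%) and 232 IL4 ones (30.2%), against 75.4 and 172 from indiscriminate pairing, ratios of 1.57 (1.30 to 1.88) and 1.35 (1.18 to 1.54). Cd8a met Vcan in 95 and 151 (1.53, 1.24 to 1.87, and 1.14, 0.966 to 1.34), Ccr7 in 73 and 158 (1.53, 1.2 to 1.92, and 1.5, 1.28 to 1.75) and Cd209a in 42 and 77 (1.54, 1.11 to 2.08, and 1.42, 1.12 to 1.78). Its combination with Xcr1 was found in 12 and 24 (1.59, 0.821 to 2.78, and 1.82, 1.16 to 2.70). At a marker minimum of 1 UMI, Cd8a was thus more frequent than in pairs beside each of the 5 partner markers. The intervals included 1 for Xcr1 in the control library and Vcan in the IL4 library. At a minimum of 2 UMIs, against unmixed barcodes combined without the gates, the control ratio for Cd8a with Vcan was 0.932 (0.669 to 1.26). With C1qa it was 1.69 (1.31 to 2.15). The control intervals for Cd209a (0.933 to 2.42), Ccr7 (0.952 to 2.04) and Xcr1 (0.829 to 4.92) then included 1. At 1 UMI, Ncr1 was below the pairs, with C1qa in 25 and 102 barcodes (0.321, 0.208 to 0.474, and 0.543, 0.443 to 0.660) and with Vcan in 18 and 72 (0.253, 0.15 to 0.400, and 0.488, 0.382 to 0.615). Ncr1 with Xcr1 was found in 3 and 7 barcodes (0.536, 0.110 to 1.57, and 0.553, 0.222 to 1.14), and both intervals included 1. Cd4 with Xcr1 was found in 6 control (2.38, 0.874 to 5.18) and 15 IL4 barcodes (3.51, 1.96 to 5.78), where pairing gave 2.52 and 4.28. By class, cDC1 met CD4 T cells in 4 control and 10 IL4 barcodes (1.89, 0.514 to 4.83, and 4.52, 2.17 to 8.32), where pairing gave 2.12 and 2.21, and CD8 T cells in 13 and 24 (2.0, 1.07 to 3.42, and 1.73, 1.11 to 2.57).

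Gene by gene, the summed expression of mixed barcodes, 8145425 UMIs in the control library and 15409246 in the IL4 library, was close to a weighted sum of unmixed classes of the same library. In the non-negative least-squares fit, lymphocyte profiles took 46.8% of control and 45.1% of IL4 UMIs, with the CD8 class at 29.9% and 30.5% and C1q macrophages at 18.9% and 24.7%. The monocyte profile received a weight of 0 in both. Of 13086 genes with at least 20 UMIs, 8 were at least 1.5-fold above the fit in both libraries, or 0.0611%, and 11 were at least 1.5-fold below it, or 0.0841%. Folds are on the scale of CPM plus 1. These calls depended on the settings, from 1 above and 4 below with a pseudocount of 5 CPM to 20 and 70 with 2 references. With a myeloid limit of 100 per 10000, none of the 8 and 3 of the 11 were called again.

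Among the 8 genes above the fit, Csf2 was the farthest, at 14.4 CPM against 3.46 fitted in the control and 17.52 against 5.31 in the IL4 library (log2 1.79 and 1.55). Csf2 encodes the cytokine GM-CSF, which activated T and NK cells release and which acts on myeloid cells, and lies at chr11:54247271-54249667 on the minus strand of GRCm38. For the genes called against the fit, shares of pairs are over all possible pairs, whether or not these passed the gates. Few barcodes carried Csf2. In the control library 20 of 376 mixed barcodes (5.32%, 3.28% to 8.10%) had a UMI, against 4.86% of all pairs, and 1 barcode held 24 of the 117 UMIs. In the IL4 library 37 of 768 had one (4.82%, 3.41% to 6.58%) against 5.47% of pairs, and 1 barcode held 82 of 270 UMIs. The share of barcodes with Csf2 was therefore not above that of pairs, and the higher sum rested on more UMIs in the few that had it. Tnfrsf10b, a death receptor gene for TRAIL, was at 4.30 and 2.60 CPM against 2.10 and 1.2 fitted, and found in 7.98% (5.45% to 11.2%) and 4.43% (3.09% to 6.13%) of mixed barcodes against 5.31% and 2.14% of pairs. Of the other genes above the fit, Ank3 and Tenm4 encode a cytoskeletal adaptor and a teneurin at under 10 CPM, and Ncmap, Gm35239, Gm4251 and Gm49313 had between 11 and 49 UMIs per library.

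The genes below the fit were led by granzymes and by Arg1. Gzmf was at 23.6 CPM against 187 fitted in the control and 7.33 against 18.8 in the IL4 library, and Gzme at 2.82 against 17.2 and 1.17 against 12.3. Both encode granzymes of activated cytotoxic lymphocytes and lie in the granzyme cluster at chr14:56205263-56211417 and chr14:56117626-56120625 (GRCm38). Transcripts of these neighbouring granzyme genes are alike in sequence, so reads may be divided between them. Single barcodes weighed heavily, since 1 lymphocyte-only control barcode held 937 of the 1091 Gzmf UMIs of its group, and 1 held 155 of 279 Gzme UMIs in the IL4 library. The share of mixed barcodes with Gzmf was 3.72% (2.05% to 6.17%) against 4.79% of pairs in the control and 2.99% (1.91% to 4.46%) against 4.11% in the IL4 library. Gzme was found in 0.911% (0.367% to 1.87%) of IL4 mixed barcodes against 3.42% of pairs. Serpinb9b, a gene of the family of granzyme B inhibitors, was at 7.37 CPM against 20.7 and at 11.6 against 19.02, and found in 2.93% (1.47% to 5.17%) and 7.42% (5.67% to 9.51%) of mixed barcodes against 5.26% and 13.3% of pairs. Its level was therefore below the fit, and its share of barcodes below that of all possible pairs. Those pairs hold the lymphocyte-only barcodes as they are, 22.5% and 28.1% of them NK-class, against 7.71% and 11.7% of mixed barcodes. The part of this difference in the shares was not tested.

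Arg1, the arginine-degrading enzyme of hypoxic and suppressive macrophages, was at 111 CPM against 199 fitted in the control and at 56.1 against 95.7 in the IL4 library (log2 -0.84 and -0.76). It had a UMI in 33.5% (28.8% to 38.5%) of control mixed barcodes against 33.8% of pairs, and in 20.4% (17.6% to 23.5%) of IL4 ones against 25.1%. Mmp12, a macrophage elastase, was at 10.4 CPM against 24.8 and at 5.91 against 11.9. The other genes below the fit were the protease gene Mmp13 and Bco1, Cd163l1, Glis1, Map3k12 and Tgfbr3, each under 10 CPM. Among genes at 20 CPM or more, observed or fitted, the lowest against the fit in both libraries after Arg1 were Pdpn (log2 -0.92 and -0.53), the neutrophil chemokine gene Cxcl3 (-0.71 and -0.48), Cd209a (-0.48 and -0.42) and Pf4 (-0.47 and -0.40). The highest included the histone gene Hist1h2an (0.54 and 0.65), 1 of many near-identical copies whose counts are uncertain, the carboxypeptidase gene Cpm (0.54 and 0.36), the centromere gene Cenpf (0.42 and 0.34), Ifnb1, encoding interferon beta (0.34 and 0.29), and Il2ra, the interleukin 2 receptor alpha chain (0.35 and 0.28).

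**Figure D5:**
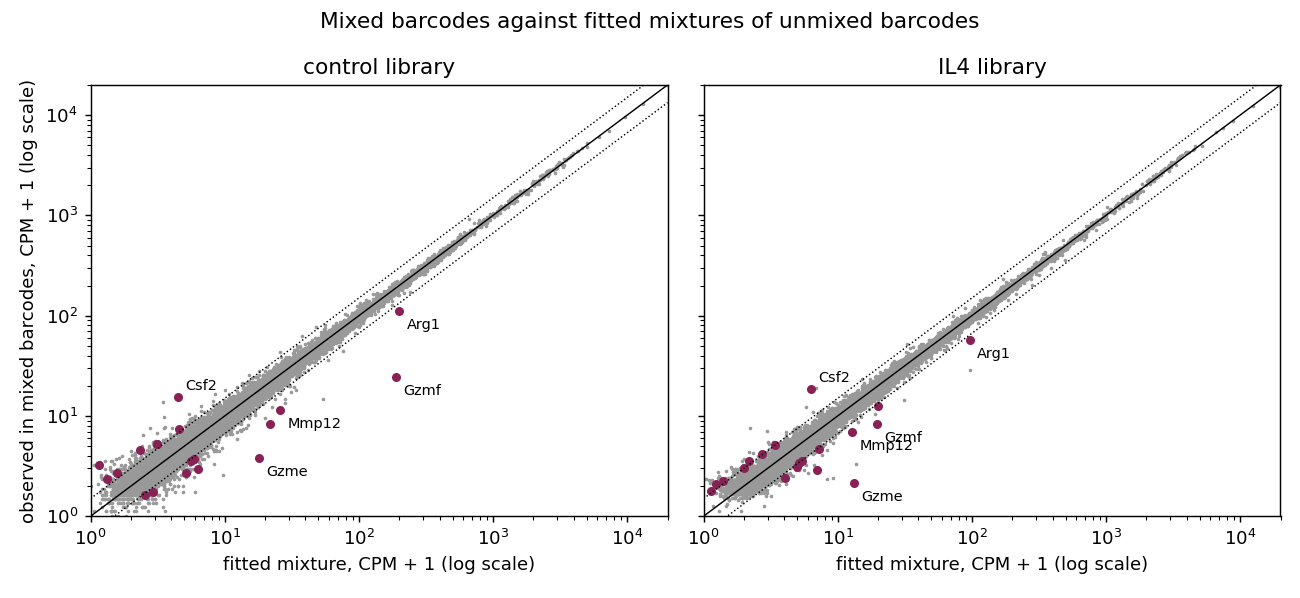
Summed expression of mixed barcodes (y axis, CPM plus 1, log scale) against the fitted mixture of unmixed classes (x axis, same scale) for 13086 genes in each library, with the line of equality and dotted lines at 1.5-fold. The 8 genes above and 11 below the fit in both libraries are coloured, and most lie at low levels, with Csf2 above (14.4 and 17.52 CPM) and Arg1 below (111 and 56.1 CPM).

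Of the gene lists that could mark contact or activation, nearly all members lay within 1.5-fold of the fit, with fold and background as above. None of the 17 T cell activation genes, 10 inhibitory receptor genes, 18 adhesion and synapse genes, 12 costimulatory ligands, 8 MHC class II loading genes, 14 engulfment receptor genes, 19 interferon gamma response genes, 15 cycling genes and 15 dissociation stress genes tested was called in either direction in both libraries. Of 15 cytotoxic effector genes, 2 were below the fit, Gzme and Gzmf. As only 0.0611% of all genes were called above and 0.0841% below, 0 calls in lists of this size lie near the background. Some members passed 1.5-fold in 1 library only. Above the fit were Cd70 in the IL4 library (11.2 CPM against 4.80 fitted) and Tnfsf15 in the control (5.77 against 2.11). Below it were Slamf6 in the control (17.1 against 33.2) and Klrg1 in the IL4 library (9.41 against 17.9). The median log2 ratios to the fit were small, 0.07 and 0.03 for T cell activation, -0.08 and -0.02 for adhesion and synapse, -0.01 and 0.13 for costimulatory ligands and -0.01 and 0.11 for the interferon gamma response. The chemokine genes that attract T cells through CXCR3 were within 1.5-fold of the fit as well: Cxcl10 stood 0.07 and 0.11 and Cxcl9 -0.10 and 0.44 from the fit on the log2 scale. Ifng stood 0.16 and 0.20 from it.

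Between the libraries, the largest ratios in mixed barcodes included higher cytokine genes and lower heat shock genes in the IL4 library. Of the 13086 genes, 353 were at least 1.5-fold higher in IL4 than in control mixed barcodes, or 2.70%, and 394 were at least 1.5-fold lower, or 3.01%. With the median ratio over genes set to 1, 431 were higher and 311 lower. The 5 highest by the text's rule were Ccl8 (16.2 CPM control, 47.6 CPM IL4), Il1a (8.10 and 22.8), Il10 (37.6 and 98.6), Areg (40.1 and 94.2) and Tnfsf9 (35.1 and 79.4). Ccl8 attracts monocytes and T cells, Il1a and Il10 encode an inflammatory and an immunosuppressive cytokine, Areg is an epidermal growth factor receptor ligand, and Tnfsf9 is the costimulatory ligand of 4-1BB. For Il10 the ratio was 2.63-fold (Poisson interval 2.32 to 2.98), and 336 of 768 IL4 mixed barcodes had a UMI against 104 of 376 control ones. In myeloid-only barcodes Il10 was at 39.8 CPM in the control library and 114 CPM in the IL4 library, and in lymphocyte-only barcodes at 30.4 and 42.2 CPM. Tnfsf9 was 2.26-fold higher (1.99 to 2.58) in mixed barcodes, with myeloid-only levels of 62.2 and 109 CPM and lymphocyte-only levels of 16.5 and 17.2 CPM. The myeloid-only barcodes thus differed in the same direction as the mixed ones for both genes. They did so for Il1a (19.0 CPM control and 38.7 CPM IL4) and Areg (53.8 and 114 CPM) too. Ccl8 differed little in myeloid-only barcodes, at 47.1 and 52.8 CPM, and its control mixed level lay below the fit (16.2 against 30.1 CPM).

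The 5 lowest were G0s2 (42.2 CPM control, 9.67 CPM IL4), the eosinophil-associated ribonuclease gene Ear2 (29.6 and 8.37), the small heat shock gene Hspb1 (72.3 and 23.8), Gzmf (23.6 and 7.33) and the Y-linked Eif2s3y (31.8 and 10.1). Single barcodes carried much of 2 of these, since 126 of the 344 control G0s2 UMIs and 68 of the 192 control Gzmf UMIs came from 1 barcode each. The lower Eif2s3y goes with the smaller share of mixed barcodes with a Y-linked UMI in the IL4 library, 30.1% against 62.0%. Hspb1 was lower in the IL4 library outside mixed barcodes as well, at 91.0 and 24.9 CPM in control and IL4 myeloid-only barcodes. In lymphocyte-only ones it was at 26.4 and 13.8 CPM. Hspa1a, encoding the inducible heat shock protein 70, was at 1311 CPM in the control library and 733 CPM in the IL4 library, Hspa1b at 906 and 471 CPM, and Hsp90aa1 at 1315 and 852 CPM. These were the 3 members of the 15-gene dissociation stress list that were at least 1.5-fold lower, with 0 higher. Over all genes tested, 3.01% were lower and 2.70% higher.

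Over all 13086 genes, 2.70% were higher and 3.01% lower, the background for the list counts below. In lists of this size, counts of 0 or 1 lie near it. Of 12 costimulatory ligands, 3 were at least 1.5-fold higher in IL4 mixed barcodes and 0 lower, with a list median of 0.41 on the log2 scale, where the median over all genes tested was -0.04. They were Tnfsf9, Cd40 (30.7 and 50.4 CPM), the receptor through which T cells license dendritic cells, and the CD27 ligand Cd70 (6.63 and 11.2 CPM). Of 19 interferon gamma response genes, 3 were higher, namely Cxcl10 (517 and 859 CPM), Socs1 (51.7 and 85.0) and Gbp5 (56.6 and 90.3), and 1 was lower, Nos2, at 24 and 19 UMIs. Of 15 cytotoxic effector genes 0 were higher and 3 lower, Gzmf, Gzme and Gzmc, the last at 176 and 105 CPM. Among 17 T cell activation genes 1 was higher, Tnf (192 and 307 CPM), and 0 were lower, and among 18 adhesion and synapse genes 1 was higher, Slamf7 (80.04 and 126 CPM). Of 14 engulfment receptor genes 2 were higher, Timd4 and Mfge8, and 2 lower, Gas6 and Cd36. Of 15 cycling genes 1 was lower, Cdk1 (39.3 and 24.2 CPM), and no inhibitory receptor, naive and memory or MHC class II loading gene was called. Among the gate genes, H2-Ab1 was at 2110 CPM in the control library and 2083 CPM in the IL4 library, Cd74 at 4407 and 4238 CPM and Cd3e at 135 and 124 CPM. As the mixed barcodes of the 2 libraries also differ in partner makeup, a change per cell and a change in which cells are present cannot be told apart here. The libraries differed in sex-linked UMIs as well. Among myeloid-only barcodes, 58.9% of control and 80.9% of IL4 ones had an Xist UMI, and 38.8% and 16.6% a Y-linked one. In every comparison between the libraries, the sex of the cells and treatment therefore cannot be told apart.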

How the data were processed

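Counts of UMIs per gene and barcode, as deposited by the authors, were used without normalisation. The submitters' processing notes name Cell Ranger 7.2.0 and mm10, the build of the counts. Sources used here do not give the annotation release. The counts hold 32285 genes and, on inspection, only barcodes of at least 500 UMIs, 95499107 UMIs for control and 133151428 for IL4.

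The members, gene lists and comparisons were chosen with earlier results of these data known. Doublets were not removed, since barcodes that mix cell types are the subject here, and no doublet caller was run. Classes were read from marker UMIs as stated in the report, with 2 UMIs as the minimum for a dendritic cell, B cell or monocyte class, over 50 per 10000 UMIs of S100a8 and S100a9 for neutrophils and at least 10 per 10000 of the C1q genes for C1q macrophages. UMIs were summed over mixed barcodes per library and scaled to CPM, and ratios were taken with a pseudocount of 1 CPM, for genes with at least 20 UMIs over both libraries. The mixture was fitted by non-negative least squares on the unmixed classes of the same library, without gate, mitochondrial and ribosomal genes. Genes were weighted by the inverse of the square root of mean CPM plus 1. It was tested on simulated data first. Shares carry exact Clopper-Pearson intervals, differences Newcombe intervals, and counts and ratios exact Poisson intervals at the 95% level. UMIs of 1 cell are not independent draws from a population of mice, so intervals cover counting error only.

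Named genes were the gate genes, fixed lineage and state markers, the 10 highest and 10 lowest genes against the fit and the 5 highest and 5 lowest between libraries (at least 50 UMIs and 20 CPM, without mitochondrial, ribosomal, receptor variable and predicted genes), and, for each list, at most 3 of its genes, taken by absolute ratio. All genes called against the fit in both libraries are named besides. So are further list members past 1.5-fold between libraries, or against the fit in 1 library. These were chosen after their values were seen. Alternatives changed the gates, the barcode filter, depth, the marker minimum, the pseudocount, the low-count filter, scaling, and the references and weights of the fit. Gene positions are those of the GENCODE annotation of GRCm38, matched by gene identifier. Python 3.11.15, numpy 2.4.6, scipy 1.17.1, pandas 2.3.3 and matplotlib 3.10.9 were used.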

Additional observations from a re-analysis of the deposited data

How the results depend on the processing

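Of 136 recomputed main values, 100 stayed within their error or count range, and the cause of the other 36 was not tested. None of these main values whose interval left its null, and no named gene past 1.5-fold, changed direction under them. Values near their null did: the IL4 C1q macrophage ratio to the pairs, 1.05 as reported, was 0.968 with a lymphocyte gate of 4 UMIs and 0.953 with a myeloid limit of 100 per 10000, and the control mature dendritic cell ratio, 1.06 as reported, was 0.948 at that limit. The share of barcodes with Cd8a, higher in mixed than in lymphocyte-only barcodes as deposited, was lower after thinning to 3000 UMIs (19.9% against 24.4% control, 19.02% against 21.9% IL4). With a lymphocyte gate of 1 UMI, the mixed share differed by 2.51 points between libraries, the ratio to the product of the gates was 0.788 and 0.790 (control and IL4), mixed barcodes were 67.2% and 67.9% of lymphocyte-gated ones, 29.3% and 19.2% held Xist and Y-linked UMIs, the UMI ratio was 0.825 and 0.847, and the IL4 mature dendritic cell ratio to myeloid-only barcodes was 1.72. With 4 UMIs, the mixed share differed by 0.790 points. With a myeloid limit of 40 per 10000, mixed barcodes were 45.1% and 49.3% of lymphocyte-gated ones. At 100 per 10000 they were 26.1% and 31.4%, the ratio to the product was 0.466 and 0.568, and the control monocyte ratio to myeloid-only barcodes was 0.353. Without Apoe and Cd74 in the gate they were 46.2% and 50.6%. Thinned to 3000 UMIs, they were 43.4% and 49.7%, the ratio to the product was 0.513 and 0.585, and Xist with Y-linked UMIs were held by 12.2% and 6.81%. With a marker minimum of 2 UMIs, 0 marker combinations left independence in each library, and after thinning 0 did in the IL4 library and 1 in the control library, Cd8a with Vcan at 0.348. A pseudocount of 5 CPM left 100 genes higher and 74 lower between libraries, and 1 above and 4 below the fit. With 2 references the fit had 20 genes above and 70 below, and without weights 20 below. None of the 8 genes above the fit was called again at a myeloid limit of 100 per 10000, and 3 of the 11 below were. Scaling by the median ratio over genes gave 431 higher and 311 lower between libraries, against 353 and 394. Under that limit 471 genes were higher and 567 lower between libraries, and the CD8 class stood at 1.16 (0.913 to 1.46) and 1.19 (1.03 to 1.37) times the pairs, a setting chosen after seeing the data, as were all alternatives for pairs. With 5000 UMIs required, the CD8 ratios were 1.31 and 1.26.

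No paired analysis was possible because each group has 1 library. Precision is limited by 302 and 537 lymphocyte-only barcodes, which set the share expected of each lymphocyte class, and by rare classes: ratios for combinations with under 5 expected barcodes rest on few barcodes. The part of free RNA in barcodes near the lymphocyte gate was not tested.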
